A study of Homo sapiens with 9 samples.

Results

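The T cell antigen receptor is built from several chains, and the genes of these chains and of an adaptor bound to them were followed in ribosome footprints of Jurkat cells. They were chosen by Ensembl ID from a list of 8 genes. Of these, 5 were followed among the 19569 IDs of the count table: CD3D (ENSG00000167286.10), CD3E (ENSG00000198851.10), CD3G (ENSG00000160654.11), CD247 (ENSG00000198821.11) and TRAT1 (ENSG00000163519.14). All 5 passed the low-count filter. TRAC, TRBC1 and TRBC2 were not analysed here. Ribosome profiling sequences the mRNA fragments covered by translating ribosomes, so a gene's footprint count reflects both its mRNA and the translation of that mRNA. Jurkat clone E6-1 is a human T lymphoblast line, so every library comes from 1 clone of leukaemic cells. Resting cells were left without antibody and are labelled 0 h. No library comes from cells kept without antibody for 5 h or 12 h. Stimulation and time in culture therefore cannot be told apart. Activated cells were kept for 5 h or 12 h on plates coated with anti-CD3 antibody at 10 µg/mL, with anti-CD28 antibody at 5 µg/mL in the medium. Each group had 3 biological replicates, per the labels.

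In a T cell the alpha and beta chains of the receptor bind peptide held by MHC molecules but have almost no signalling tail of their own. Signals are passed by the CD3 chains, where the epsilon chain pairs with delta or with gamma, and by a dimer of zeta chains. Their tails carry tyrosine motifs that LCK phosphorylates and ZAP70 then binds. The chains are assembled in the endoplasmic reticulum, unassembled chains are degraded there, and zeta is the chain that completes the complex for export to the surface. Bound receptors are taken up from the surface after stimulation. CD3D, CD3E and CD3G encode the delta, epsilon and gamma chains, and CD247 encodes zeta. TRAT1 encodes a transmembrane adaptor that travels with the receptor complex.

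CD3E, CD3D and CD3G lie next to each other, in this order, among the protein-coding genes of chromosome 11 in RefSeq, and their gene bodies do not overlap. The RefSeq promoter table held 3 of the 5 genes. Their 250 bases before the start are shown because CD3D moved one way during activation and CD247 and TRAT1 the other. Each runs 5′ to 3′ on the gene's strand, from GRCh38.p14. Capitals mark only the letters GGAAG, a form of the ETS core, or their complement CTTCC. The windows are chr11:118342706-118342955 (minus strand) for CD3D, chr1:167518530-167518779 (minus strand) for CD247 and chr3:108822536-108822785 (plus strand) for TRAT1.
CD3D: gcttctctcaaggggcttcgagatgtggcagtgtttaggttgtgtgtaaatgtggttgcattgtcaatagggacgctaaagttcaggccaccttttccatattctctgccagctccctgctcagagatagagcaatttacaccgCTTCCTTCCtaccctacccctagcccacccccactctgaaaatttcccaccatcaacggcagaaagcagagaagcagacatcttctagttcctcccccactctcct
CD247: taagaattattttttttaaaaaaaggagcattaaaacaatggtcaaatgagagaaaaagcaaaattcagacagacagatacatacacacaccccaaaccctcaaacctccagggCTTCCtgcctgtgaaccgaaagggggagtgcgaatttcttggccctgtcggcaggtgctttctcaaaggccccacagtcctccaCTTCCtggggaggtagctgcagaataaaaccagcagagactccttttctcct
TRAT1: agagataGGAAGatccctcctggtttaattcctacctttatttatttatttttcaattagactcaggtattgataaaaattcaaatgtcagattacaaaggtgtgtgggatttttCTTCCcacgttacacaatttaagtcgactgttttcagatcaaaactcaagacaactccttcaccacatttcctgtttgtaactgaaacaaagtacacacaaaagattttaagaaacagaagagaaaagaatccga
Each of the 3 windows held GGAAG, on either strand, at 2 places. Other forms of the ETS core were not searched and are not in capitals. Their first bases lay 106 and 102 bases before the start in CD3D, 136 and 52 in CD247, and 243 and 135 in TRAT1. This short motif is common: 65.1% of 35116 promoters hold it in the same window. The E-box CANNTG, found in 61.8% of promoters, matched at 2 places in CD247, at 1 place in TRAT1 and at none in CD3D. Neither strand of the 3 windows held the letters AGATAA, a form of the GATA site (9.17% of promoters), or the TATA box TATAAA (10.7%). Neither strand held the AP-1 site TGANTCA (6.57%) or the cyclic AMP response element TGACGTCA (1.65%). Other forms of the GATA site were not searched, but the printed letters hold some: AGATAG in CD3D and TRAT1, and TGATAA in TRAT1. The share of promoters with these forms was not computed. A pair of these motifs may share bases. Transcription was not measured, and the matches describe letters only.

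Library totals ran from 9239287 to 10171929 counts at rest, from 9492122 to 18506509 at 5 h and from 4343515 to 11153533 at 12 h. Member counts ran from 156 for TRAT1 in 12 h replicate 2 to 41474 for CD3D in 5 h replicate 3. Levels below are CPM, footprint counts brought to a common library size with TMM factors. TMM sets each library's size by the bulk of its genes. Levels are not divided by gene length, so each gene is read only against itself over time. The 9 libraries were taken from whole cultures, where fewer cells using a gene and fewer footprints per cell cannot be told apart. The defining chains of a T cell were well measured in every library, with at least 2094 counts for each of CD3D, CD3E and CD3G. Other cell type markers were not tested here.

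These chains moved apart between resting and activated cells. CD3D rose, CD3G, CD247 and TRAT1 fell, and CD3E, with TMM scaling, lay in its resting range at 5 h and was lower at 12 h. At 5 h against rest, 1 of the 5 genes was called higher, 3 lower and 1 not called, at an adjusted p under 0.05. Over all 13920 IDs tested, 34.5% were called, 16% higher and 18.4% lower. At 12 h against rest 1 was higher and 4 lower, where 35.1% of all IDs were called, 15.8% higher and 19.3% lower. At 12 h against 5 h none was higher, 4 were lower and 1 was not called, where 25.1% of all IDs were called, 11.6% higher and 13.5% lower. The median log2 fold change of the 5 genes was -0.60 at 5 h and -0.67 at 12 h against rest, and -0.27 at 12 h against 5 h. Over all tested IDs these medians were 0.07, 0.04 and -0.05. The comparisons with rest share the resting libraries, and the later pair shares the 5 h and 12 h libraries with them. P-values on levels come from the quasi-likelihood test of edgeR, adjusted by Benjamini-Hochberg over all tested IDs, and intervals are the 95% intervals of that fit, each for 1 test.

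**Figure D1:**
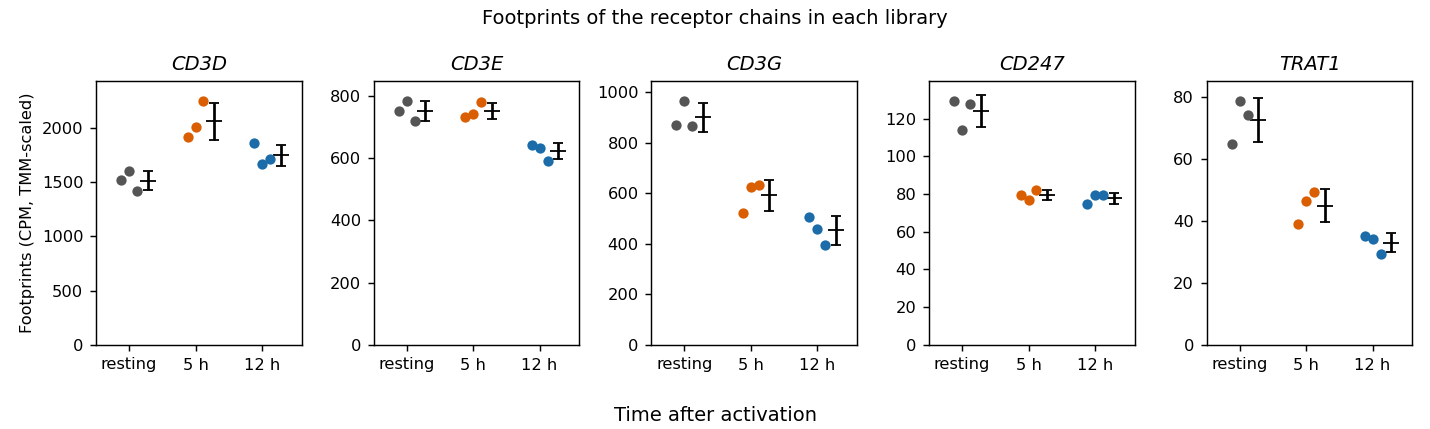
Footprint level (CPM, TMM-scaled, axis from 0) of each gene in the resting, 5 h and 12 h libraries; points are libraries and the black bar is the mean ± SD of 3. CD3D is highest at 5 h, CD3E is lowest at 12 h, CD3G and TRAT1 step down at both times, and CD247 averages 79.4 CPM at 5 h and 77.8 CPM at 12 h.

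CD3D, the delta chain, had 1523, 1598 and 1422 CPM in the resting libraries, 1919, 2008 and 2252 CPM at 5 h, and 1859, 1667 and 1712 CPM at 12 h. All 5 h and 12 h libraries lay above all resting ones, and all 12 h libraries below all 5 h ones. At 5 h CD3D averaged 2059.6 ± 172 CPM, against 1514 ± 88.4 CPM at rest (SD, n = 3 each), a log2 fold change of 0.44 ± 0.07 (SE), or 36.0% more, with an adjusted p of 2.05e-05 by edgeR. The 95% interval of the fold ran from 1.23 to 1.502. At 12 h it averaged 1746 ± 100 CPM, a log2 fold change of 0.21 ± 0.07 over rest with an adjusted p of 0.0235 by edgeR.

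How far the 12 h rise of CD3D over rest passed the test depended on the setting. By the total count alone its log2 fold change was 0.40, with an adjusted p of 1.14e-05 by edgeR, and with a stricter filter of 50 counts in 3 libraries it was 0.29, with an adjusted p of 0.00082. In the TMM fit its adjusted p by edgeR was 0.0687 without resting replicate 1 (log2 fold change 0.20), 0.152 without resting replicate 3 (0.15), 0.173 without 12 h replicate 1 (0.15) and 0.0676 when 12 h replicate 3 was left out (0.21). In the fit that kept all low counts it was 0.0838 (0.18). Against 5 h, CD3D at 12 h was lower by -0.24 ± 0.07 on the log2 scale (SE), with an adjusted p of 0.0124 by edgeR. That call was also lost without 5 h replicate 3, at -0.14 and an adjusted p of 0.192, without 12 h replicate 2, at -0.21 and 0.0858, and without replicate 3 of that group, at -0.23 and 0.0622.

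CD3E, the epsilon chain that pairs with both delta and gamma, had 749, 784 and 719.7 CPM at rest, 731, 742 and 779 CPM at 5 h, and 639.7, 632 and 591 CPM at 12 h. The 5 h libraries lay inside the resting range, and every 12 h library lay below every library of the other groups. At 5 h it averaged 751 ± 25.2 CPM, against 751 ± 32.1 CPM at rest (SD, n = 3 each). The log2 difference was -0.00052 ± 0.07 (SE), with an adjusted p of 0.996 by edgeR, and the interval of the fold ran from 0.904 to 1.10. At 12 h CD3E averaged 621 ± 26.1 CPM and was called lower than rest by -0.27 ± 0.07 on the log2 scale, with an adjusted p of 0.00358 by edgeR. It was likewise called lower than at 5 h, by -0.27 ± 0.07, with an adjusted p of 0.00494, which was 0.0537 without 5 h replicate 3 (-0.22).

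What CD3E did against rest depended on the scaling. The TMM factors ran from 0.997 to 1.06 in activated libraries, against 0.895 to 0.951 in resting ones. By the total count alone, CD3E took 0.0764%, 0.0760% and 0.0775% of counts at 5 h, against 0.0696%, 0.0701% and 0.0684% at rest, so all 5 h libraries were above all resting ones. In the edgeR fit with that scaling its log2 fold change was 0.14 at 5 h (adjusted p 0.0601) and -0.083 at 12 h (adjusted p 0.285), so the fall at 12 h against rest was not called. That scaling moved the median of all tested IDs to 0.22 at 5 h and 0.23 at 12 h. It split the calls into 3112 higher and 1756 lower at 5 h, against 2230 and 2567 with TMM, and into 3497 higher and 1671 lower at 12 h, against 2204 and 2683. The rise of CD3D and the falls of CD3G, CD247 and TRAT1 against rest were called in the same direction with either scaling.

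CD3G, the gamma chain, had 871, 967 and 865 CPM at rest, 522, 624 and 632 CPM at 5 h, and 508, 458 and 394 CPM at 12 h. The 3 groups did not overlap, and each later group was lower than the one before it. At 5 h CD3G averaged 592 ± 61.3 CPM, against 901 ± 57.0 CPM at rest (SD, n = 3 each). The log2 fold change was -0.60 ± 0.09 (SE), with an adjusted p of 1.31e-05 by edgeR. At 12 h it averaged 453 ± 57.2 CPM, a log2 fold change of -0.99 ± 0.09 against rest with an adjusted p of 1.15e-08 by edgeR. The level at 12 h was thus 0.503 of that at rest, with a 95% interval of 0.441 to 0.574. CD3G was also lower at 12 h than at 5 h, by -0.39 ± 0.09 (log2, SE), with an adjusted p of 0.00259 by edgeR.

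CD247, which encodes the zeta chain and its several tyrosine motifs, had 129.6, 114 and 128 CPM at rest, 79.3, 76.9 and 81.9 CPM at 5 h, and 74.6, 79.5 and 79.3 CPM at 12 h. All activated libraries lay below all resting ones, while the 5 h and 12 h libraries overlapped. At 5 h CD247 averaged 79.4 ± 2.51 CPM, against 124 ± 8.53 CPM at rest (SD, n = 3 each). This was a log2 fold change of -0.64 ± 0.10 (SE), with an adjusted p of 1.81e-05 by edgeR. At 12 h it averaged 77.8 ± 2.80 CPM, and the log2 fold change against rest was -0.67 ± 0.10, with an adjusted p of 1.26e-05 by edgeR. Between 12 h and 5 h CD247 differed by -0.03 ± 0.10 on the log2 scale, with an adjusted p of 0.869 by edgeR. The interval of that fold, 0.846 to 1.13, bounds how far CD247 may have moved after 5 h.

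TRAT1, the receptor-associated adaptor, had 64.8, 78.8 and 74.3 CPM at rest, 38.9, 46.5 and 49.3 CPM at 5 h, and 35.3, 34.2 and 29.4 CPM at 12 h. Its groups did not overlap, and it stepped down at both times as CD3G did. At 5 h it averaged 44.9 ± 5.37 CPM, against 72.6 ± 7.17 CPM at rest (SD, n = 3 each). The log2 fold change was -0.69 ± 0.13 (SE), with an adjusted p of 0.000167 by edgeR. At 12 h it averaged 33.0 ± 3.09 CPM, or 0.454 of rest with an interval of 0.375 to 0.551. The adjusted p of this log2 fold change, -1.14 ± 0.13, was 4.40e-07 by edgeR. Against 5 h, TRAT1 at 12 h was lower by -0.45 ± 0.13, with an adjusted p of 0.0147 by edgeR. That last call was lost without 5 h replicate 2 (-0.43, adjusted p 0.0517), 5 h replicate 3 (-0.35, 0.117) or 12 h replicate 3 (-0.38, 0.0921). TRAT1 had the fewest counts of the 5 genes, so counting error alone was between 3.32% and 8.01% of its level in a library.

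**Figure D2:**
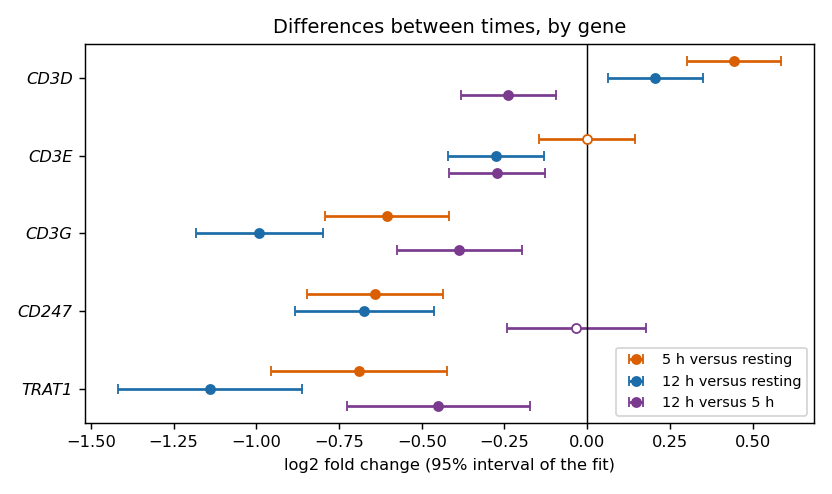
Log2 fold change of each gene (horizontal axis) in the 3 comparisons, with the 95% interval of the edgeR fit; filled points passed an adjusted p of 0.05 and open points did not. Only the CD3D intervals against rest lie wholly above 0, and the open points are CD3E at 5 h versus resting (-0.00052) and CD247 at 12 h versus 5 h (-0.03).

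In counts of groups that did not overlap, 4 of the 5 genes were separated at 5 h from rest, all 5 at 12 h from rest and 4 at 12 h from 5 h. Over all tested IDs this held for 45.7%, 45.8% and 39.1%.

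The genes were also set beside IDs of like abundance, since the median change against rest differed with abundance. Among 132 IDs averaging within 2-fold of the CD3D level, the median log2 fold change was -0.42 at 5 h and -0.49 at 12 h. Of these, 9 (6.82%) were at least as high as CD3D in fitted fold change at 5 h, and 20 (15.2%) at 12 h. Around CD3E, 431 IDs had medians of -0.28 and -0.29 at the earlier and later time, where CD3E stood at -0.00052 and -0.27. Around CD3G, 465 IDs had medians of -0.27 and -0.28, and 15.5% at 5 h and 8.60% at 12 h were as low as CD3G. Around CD247, 9.57% of 3439 IDs were as low at 5 h and 10.0% at 12 h. TRAT1 stood further out at the later time: 8.33% of 4274 IDs were as low as TRAT1 at 5 h and 2.22% at 12 h. Between 12 h and 5 h CD3D, at -0.24, was near the -0.20 median of its 132 neighbours, and 45.5% of them were as low. At the same step 26.2% of the IDs around CD3E, 15.9% around CD3G, 44.4% around CD247 and 14.7% around TRAT1 were as low as the gene itself. These shares describe where each gene lies and are not tests.

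**Figure D3:**
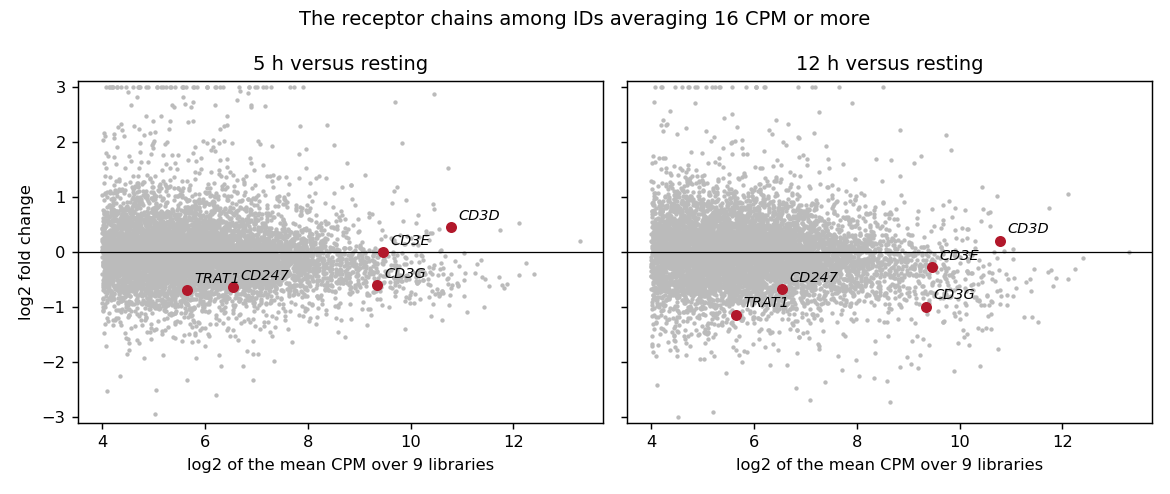
Log2 fold change (vertical axis, values beyond 3 either way drawn at 3) against log2 of the mean CPM over 9 libraries for IDs averaging 16 CPM or more (grey), with the 5 genes in red. CD3D sits above most IDs of its abundance, and CD3G and TRAT1 lie lower at 12 h (-0.99 and -1.14) than at 5 h (-0.60 and -0.69).

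Ratios between genes within a library do not depend on how libraries are scaled. They were taken from the counts, so gene length enters the ratio itself and cancels in its change over time. CD3D counts over CD3G counts were 1.75, 1.65 and 1.64 in the resting libraries, 3.68, 3.22 and 3.56 at 5 h, and 3.66, 3.64 and 4.35 at 12 h. All activated libraries stood far above all resting ones, and the 5 h and 12 h libraries overlapped. The mean ratio was 3.49 ± 0.238 at 5 h, against 1.68 ± 0.0573 at rest (SD, n = 3 each), a change of 2.07-fold. At 12 h it was 3.88 ± 0.404, a change of 2.30-fold against rest. Delta and gamma are the chains that each pair with epsilon.

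The other pairs were compared in the same way, and not all are printed. CD3D over TRAT1 changed more than CD3D over CD3G, by 2.20-fold at 5 h and 2.54-fold at 12 h against rest. CD3D over CD247 changed by 2.12-fold at 5 h and 1.83-fold at 12 h against rest. CD3D over CD3E was 2.02 ± 0.0349 at rest, 2.74 ± 0.136 at 5 h and 2.81 ± 0.152 at 12 h, as means ± SD of 3 libraries. CD3E over CD3G was 0.834 ± 0.0245 at rest, 1.27 ± 0.112 at 5 h and 1.38 ± 0.121 at 12 h. CD3E over CD247 was 6.09 ± 0.679 at rest, 9.45 ± 0.220 at 5 h and 7.996 ± 0.565 at 12 h. In each of these pairs no activated library overlapped the resting ones. CD3G over TRAT1 was 12.5 ± 0.923 at rest, 13.2 ± 0.345 at 5 h and 13.7 ± 0.577 at 12 h, and the libraries of each pair of groups overlapped. CD247 over TRAT1 was 1.79 ± 0.220 at 5 h, against 1.72 ± 0.277 at rest, with overlap. At 12 h it was 2.38 ± 0.293, above every library of the other groups.

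Of the 10 pairs, 7 did not overlap between 5 h and rest, 8 between 12 h and rest and 2 between 12 h and 5 h. The last 2 were CD3E over CD247 and CD247 over TRAT1. Pairs drawn from 5 genes share members and are not independent. Ratios of other IDs were not computed, so no share over all pairs stands beside these counts. Levels of single IDs did not overlap for 45.7%, 45.8% and 39.1% of all tested IDs in the same comparisons. Each pair without overlap had a two-sided exact permutation p of 0.1, the smallest that 3 against 3 libraries allow. It was 0.176 after Benjamini-Hochberg adjustment over the 30 comparisons. The ratios therefore cannot reach 0.05 in this design, and their separation is given as measured values.

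The summed footprints of CD3D, CD3E and CD3G were 3166 ± 172 CPM at rest, 3403 ± 247 CPM at 5 h and 2820.4 ± 164 CPM at 12 h, again as means ± SD of 3 libraries. By share of all counts the sum was 0.292% ± 0.00697 at rest, 0.347% ± 0.0166 at 5 h and 0.297% ± 0.0155 at 12 h. The order of the 12 h and resting means thus differed with the scaling, and the libraries of these groups overlapped with either scaling. Within the sum CD3D made up 47.8% ± 0.582 at rest, 60.5% ± 0.979 at 5 h and 61.9% ± 1.52 at 12 h. CD3G made up 28.5% ± 0.635 at rest, 17.4% ± 1.03 at 5 h and 16.04% ± 1.25 at 12 h. CD3E made up 23.7% ± 0.281 at rest, 22.1% ± 0.895 at 5 h and 22.04% ± 0.828 at 12 h. The CD3D share was thus larger, and the CD3G and CD3E shares smaller, in every activated library than in every resting one. For CD3E the gap was narrow, with a highest activated share of 23.0% and a lowest resting share of 23.4%.

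**Figure D4:**
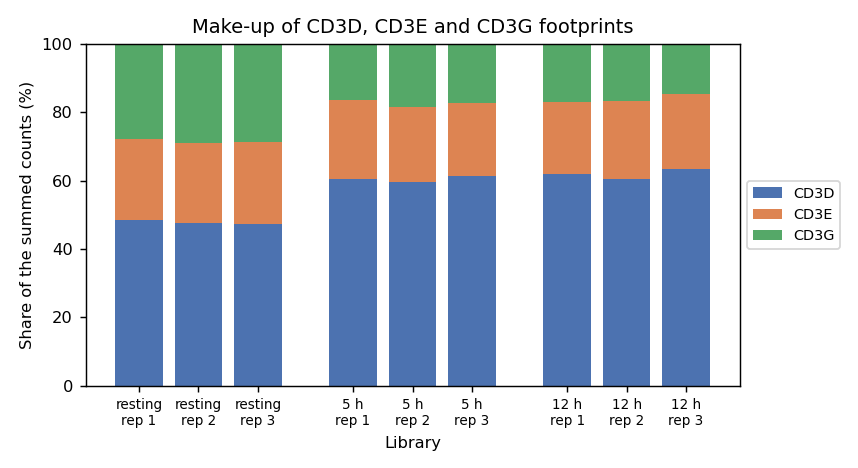
Share of the summed CD3D, CD3E and CD3G counts (%, not divided by length) taken by each gene in every library, grouped as resting, 5 h and 12 h. The CD3D share is 59.5% to 63.5% in activated libraries, against 47.3% to 48.4% at rest. The CD3G share is 14.6% to 18.5% in activated libraries, against 27.7% to 28.9% at rest. The CD3E share is 21.3% to 23.0% in activated libraries, against 23.4% to 23.9% at rest.

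Likeness of pattern was measured as Pearson's r of log2 CPM over the 9 libraries, as a description. The libraries form 3 groups and share their scaling, so r mostly reads the group means. CD3G and TRAT1 had the closest patterns among the 5 genes, at r = 0.991. Among 7736 other IDs averaging at least 16 CPM, only 1 was as close to CD3G as TRAT1 was, and 3 were as close to TRAT1 as CD3G was. CD247 followed CD3G at 0.856 and TRAT1 at 0.869, CD3E followed CD3G at 0.799, and CD3D ran opposite to CD247 at -0.77. CD3D and CD3E had an r of 0.140. The files do not pair other IDs with gene names. The ID nearest to both CD3G (r = 0.994) and TRAT1 (r = 0.994) was ENSG00000124207.17, with log2 fold changes of -0.74 at 5 h and -1.22 at 12 h against rest. For CD247 it was ENSG00000163520.14 (r = 0.992), which fell further, by -1.51 and -1.72. For CD3D it was ENSG00000213281.5 (r = 0.969), at 0.59 and 0.34. Patterns of this kind were common: 559 IDs had an r of at least 0.9 with CD3G, 560 with TRAT1, 424 with CD247, 280 with CD3E and 169 with CD3D.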

How the data were processed

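The authors deposited whole-number footprint counts per Ensembl gene ID, with no normalization. They also deposited log2 values for 11572 IDs, which equal log2 of the count over 1 size factor per library, plus 1 (largest difference 5.03e-09). Per the submitters' processing notes cutadapt 3.2, Bowtie, bedtools, RSEM and DESeq2 were used with GRCh38.p13. Footprint isolation, the treatment of fragments matching several genes and any rounding of RSEM estimates are not stated in the labels or files used. No member shared its counts with another ID.

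Counts of all 9 libraries entered 1 edgeR 4.0.16 fit (R 4.3.3; filterByExpr, TMM, group as the only term). The procedure was tested on simulated data in which a small set of IDs was raised in the 5 h group only. That setting differs from these data and cannot decide between scalings. Alternatives were DESeq2 1.42.0, limma 3.58.1 on the log2 values, other filters and scalings, a replicate block and each library left out. Amplified fragments are not independent molecules, so counting errors are minimums. Replicates differed by more than sampling noise: chi-square per degree of freedom was 3.73 to 11.7 for pairs within a group. Same-numbered libraries did not deviate together (r from -0.06 to 0.06 over 9 pairs), so replicate numbers were not taken as pairs.

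Genes and tests were chosen with earlier results of these data known. Every gene followed is named. For each, the 3 IDs nearest in pattern were found and the first printed, except for CD3E. Member symbols come from the list of IDs that defines them. Other genes of the pathway and cell type markers were not analysed, because the tables used here do not pair Ensembl IDs with symbols. Coding lengths were not used here.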

Additional observations from a re-analysis of the deposited data

Results flagged for a closer look

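For 4 of the 5 genes the change from resting cells was called different at 12 h and at 5 h. This used the direct test of 12 h against 5 h, which called 25.1% of all 13920 tested IDs. The difference on the log2 scale was -0.24 for CD3D, -0.27 for CD3E, -0.39 for CD3G and -0.45 for TRAT1, and the adjusted p-values from edgeR were 0.0124, 0.00494, 0.00259 and 0.0147. In each of the 4 genes all 3 libraries at 12 h lay below all 3 at 5 h, and over all tested IDs 39.1% did not overlap in this comparison. Over 18 alternatives the call was lost in 4 for CD3D, in 1 for CD3E and in 3 for TRAT1, and in none for CD3G. Among IDs of like abundance 45.5% were as low as CD3D. Groups of 3 libraries were too small to look for single libraries that stand apart.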

How the results depend on the processing

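Over the 5 genes, 3 comparisons and 18 alternatives, 256 of 270 values kept the side of the threshold they had and 14 lost it, and no called value changed sign. Scaling by the total count alone was chosen after seeing the data. CD3D at 12 h versus resting was 0.18 with no low-count filter (log2, adjusted p 0.0838) and 0.15 to 0.24 with single libraries left out, and it was 0.40 by the total count (adjusted p 1.14e-05). CD3D at 12 h versus 5 h was -0.20 by limma on the authors' log2 table (adjusted p 0.0551) and -0.29 to -0.14 with libraries left out. CD3E at 12 h versus resting was -0.083 by the total count (adjusted p 0.285), and at 12 h versus 5 h it was -0.30 to -0.22 with libraries left out. TRAT1 at 12 h versus 5 h was -0.55 to -0.35 with libraries left out. The cause of these changes was not tested. Counts of IDs called stayed within 1.5 times: 4000 to 4868 at 5 h versus resting, 4021 to 5168 at 12 h versus resting and 2831 to 3786 at 12 h versus 5 h. With the replicate number as a block they were 4644, 4689 and 3373, and the block changed no call of the 5 genes. Footprints per coding length and the summed TRBC1 and TRBC2 counts were not run.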
